A study of Solanum lycopersicum with 12 samples.

Results

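Leaves of tomato cultivar Ailsa Craig that received Alethea followed by salt (AS) were set against leaves that received water at both steps (WW), to describe the total shift in transcript abundance from both treatments together. Alethea is a formulated treatment that contains potassium dihydrojasmonate, a jasmonate analogue, with sodium benzoate, a precursor of salicylate, and L-arginine, together with mineral nutrients. AS plants, 4 weeks old, were sprayed until run-off with 99:1 (v/v) water and Alethea and were watered 24 h later with 100 mM NaCl, whereas WW plants of the same age received water as the spray and water in the pot. The 2 other groups carried one treatment each, with Alethea spray and water in the pot (AW) or water spray and 100 mM NaCl in the pot (WS). The third true leaves were taken 24 h after the pot was watered, which was 48 h after the spray, and each array carried pooled leaves from 3 plants, so that no array measures the spread between single plants. Each group had 3 arrays from 3 separate occasions, and AS and WW arrays of 1 occasion form a pair. The measurement is the GCRMA value on the log2 scale, on which a difference of 1 is a doubling, and it follows the RNA of a pooled leaf sample, in which fewer cells of a type and less RNA per cell cannot be told apart. Probe sets with a mean above 3.2 in AS or WW leaves were kept, which left 7735 of 10209 probe sets, 936 of them with a name. A probe set above 3.2 in only AS or only WW leaves was kept through the group where it was higher, which fixes its direction.

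Jasmonates are known in tomato for inducing protease inhibitors and other anti-herbivore proteins of the wound response, and salicylate for inducing pathogenesis-related proteins. Arginine stands upstream of the polyamines and, through ornithine, of proline. Salinity draws water from the leaf and loads it with sodium, and plants are known to meet it with abscisic acid (ABA) and ethylene signalling, with proline as a compatible solute, and with slower expansion of the cell wall. The members are therefore given below by role: proline and arginine, defence, ethylene and ABA signalling, the cell wall, photosynthesis and the organelles, and redox and growth.

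Most probe sets differed little. In the log2 difference AS minus WW, 5% of the 7735 probe sets lay below −0.645 and 5% above 0.637, 1% lay below −1.13 and 1% above 1.32, and the median change of all probe sets was −0.000827. A difference of at least 1 was seen for 142 probe sets that were higher in AS leaves (1.84%) and 125 that were lower (1.62%), 267 in all. The median absolute difference was 0.212 for AS minus WW. Of the single treatments, which were compared with the same WW arrays, AW minus WW gave 0.164 with 141 probe sets at 1 or more in either direction, and WS minus WW gave 0.145 with 63. Salt added to Alethea, AS minus AW, gave 0.117 with 45.

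With limma, with 1 mean per group and a term for occasion over all 12 arrays, 8 probe sets rose in AS leaves (0.103% of those tested) and 7 fell (0.0905%) at a Benjamini-Hochberg adjusted p under 0.05, and the smallest adjusted p was 0.0354. At an unadjusted p under 0.05 there were 952 higher (12.3%) and 902 lower (11.7%) probe sets. The calls depend on the occasion term and on single arrays. None of the 15 calls was kept without the replicate block, in a fit on the 6 AS and WW arrays alone, or without any one of AS replicate 1, AS replicate 2, AS replicate 3, WW replicate 2 or WW replicate 3, and leaving out WW replicate 1 gave 44 higher and 58 lower. The split also moved with the scaling: 23 higher and 43 lower after quantile normalisation, and 22 higher and 44 lower after centring each array on its median. The paired Rank Product, the test that the methods of the study name, called 34 probe sets higher (0.44%) and 24 lower (0.31%) at an estimated false discovery rate of 0.05, of which 3 and 4 were also limma calls.

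The 3 occasions did not weigh alike. Over the 7735 probe sets (genes, not replicates), the pair difference AS minus WW correlated with r = 0.519 between occasions 2 and 3, with 0.349 between occasions 1 and 3, and with 0.0675 between occasions 1 and 2. The median absolute pair difference was 0.234, 0.344 and 0.218 on occasions 1, 2 and 3. A total of 1772 probe sets (22.9%) were higher in AS leaves in all 3 pairs and 1659 (21.4%) were lower in all 3, while the 3 AS arrays lay wholly above the 3 WW arrays for 477 (6.17%) and wholly below them for 423 (5.47%). Of 6 tomato control transcripts that the array reads at both ends, 5 had a larger 3′ minus 5′ difference in AS leaves in every pair. The 3′ minus 5′ difference for actin averaged 1.46 in AS leaves and 0.754 in WW leaves, and for elongation factor 1-alpha 2.44 in AS leaves and 1.84 in WW leaves, with an exact two-sided sign-flip p of 0.25 each, the smallest that 3 pairs allow. The part of RNA quality in the results that follow was not tested. The 19 hybridisation controls averaged 9.84 to 10.7 on the AS arrays and 9.87 to 11.5 on the WW arrays, and the highest value was that of WW replicate 2. Summed leaf markers (log2 of the sum, 7 of 7 probe sets kept) lay at 17.2 to 17.5 in AS leaves and 17.36 to 17.56 in WW leaves. Of 6 ripening fruit probe sets 2 were kept, both for Psy1, which leaves also use for carotenoids, and differed by 0.57 and 1.24, while PG2, E8, 2A11 and the remaining Psy1 probe set stayed under the filter; the sum was 11.97 to 12.83 in AS leaves and 11.05 to 12.17 in WW leaves. Of 3 root probe sets RSI-1 and PT1 were kept and differed by 0.59 and 0.49, with AS above WW in all 3 pairs of both and a sum of 10.34 to 11.92 in AS leaves and 9.80 to 11.48 in WW leaves. Of the anther, pollen and style markers LAT61 was kept (1 of 2) and differed by −0.09, and the 2 trichome probe sets stayed under the filter. No marker was called by limma, and the part of other cell types in the results was not tested.

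**Figure D1:**
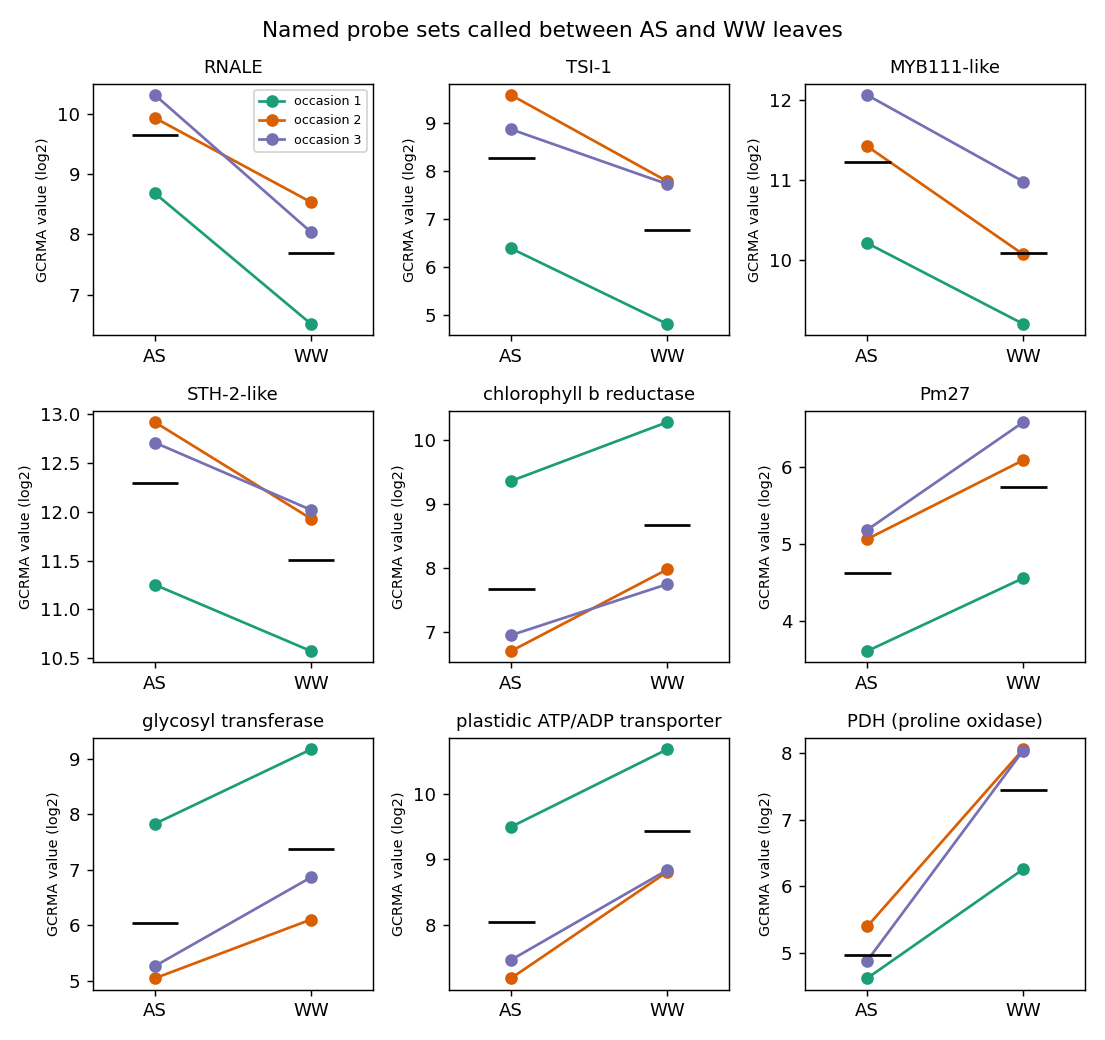
GCRMA value (log2) of the 9 named probe sets that limma called, in AS leaves at left and WW leaves at right of each panel. Points joined by a line are the arrays of 1 occasion and the black bars are group means; all lines of the first 4 panels slope the same way, with AS higher by 1.94 for RNALE, and all lines of the other 5 slope the opposite way, with AS lower, by −2.48 for PDH.

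The named probe set that fell most among the calls was PDH, which encodes proline oxidase, the enzyme that starts the breakdown of proline. Its values were 4.62, 5.40 and 4.88 in AS leaves and 6.26, 8.06 and 8.04 in WW leaves, so that the highest AS array lay below the lowest WW array. The difference was −2.48 ± 0.36 (SE of the fit to all 12 arrays, n = 3 each; adjusted p = 0.0436), a 5.6-fold lower level in AS leaves. The means of the single treatments stood far apart, at 7.14 in AW leaves and 4.33 in WS leaves, and the AS mean of 4.97 lay nearer to that of salt alone. The difference between the effect of salt with Alethea and without it was 0.95 (unadjusted p = 0.0938), which did not pass the test. PRO2, for the synthesis of proline, was at 9.39 in AS leaves and 8.99 in WW leaves, with a difference of 0.40 ± 0.20 and an adjusted p of 0.248. Its pairs were 0.02, 1.07 and 0.11, so that the mean rests on occasion 2, and leaving out 1 replicate gave 0.07 to 0.59.

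Probe sets for arginine metabolism had a positive median without a limma call. Of 14 probe sets for arginine and polyamine enzymes, 9 were higher and 1 was lower in AS leaves at an unadjusted p under 0.05, against 12.3% and 11.7% of all probe sets, and their median difference was 0.70. By occasion the list median was −0.01, 0.95 and 0.87. The 6 members that the study had itself listed as changed on these samples had a median of 1.44, and are no independent evidence of direction, while the other 8 had a median of 0.21. ARG2, a jasmonate- and wound-inducible arginase that hydrolyses arginine to ornithine and urea, led the list. A further ARG2 probe set stayed under the filter. On the first of those kept, ARG2 read 8.08, 10.99 and 10.70 in AS leaves and 5.32, 9.27 and 9.02 in WW leaves. The groups overlap, because occasion 1 was low in both, but the pair differences of 2.76, 1.72 and 1.68 had one sign. The difference was 2.05 ± 0.33 (adjusted p = 0.0504), just outside the limma threshold and inside that of the Rank Product, and the second ARG2 probe set gave 1.88 ± 0.44. The group means of the first were 9.92 (AS), 9.25 (AW), 8.61 (WS) and 7.87 (WW), so that both single treatments lay between. ARG1, the second arginase gene, differed by 0.76 ± 0.20, with pair differences of 0.72, 0.76 and 0.79. ODC, ornithine decarboxylase of the direct route to putrescine, was the member that was lower, at 7.21 in AS leaves and 7.90 in WW leaves (−0.69 ± 0.18, adjusted p = 0.0937). Acetylornithine deacetylase, of ornithine synthesis, was higher by 1.11 and 0.99 on its 2 probe sets in the mean, but its occasion 1 pairs gave −0.16 and −0.01.

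The largest named increase among the calls was in a defence-related ribonuclease. RNALE, an extracellular ribonuclease known from phosphate-starved and wounded tomato tissue, read 8.68, 9.93 and 10.31 in AS leaves and 6.51, 8.53 and 8.04 in WW leaves. Every AS array lay above every WW array, and the difference was 1.94 ± 0.24 (3.85-fold, adjusted p = 0.0354). The AW mean was 9.72 and the WS mean 7.86, against 9.64 in AS and 7.70 in WW leaves. Its relative rnalx, an intracellular ribonuclease, differed by 0.45 ± 0.14, short of the threshold.

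A pair of probe sets of the PR-10 family, small intracellular pathogenesis-related proteins, were the other defence calls. TSI-1 read 6.39, 9.59 and 8.88 in AS leaves and 4.82, 7.79 and 7.73 in WW leaves. Occasion 1 was the lowest in both groups and the ranges overlapped, yet each pair rose, by 1.58, 1.80 and 1.14, and the fit gave 1.5 ± 0.19 (adjusted p = 0.0354). A probe set similar to STH-2 of potato read 11.25, 12.92 and 12.71 in AS leaves and 10.57, 11.93 and 12.02 in WW leaves, a rise of 0.79 ± 0.11 (adjusted p = 0.0396). Of the 24 pathogenesis-related probe sets kept, those 3 rose and none fell by limma (0.103% and 0.0905% of all probe sets), 6 were higher and 3 lower at an unadjusted p under 0.05 (12.3% and 11.7%), and the median was 0.27. The 12 members in the lists of the study had a median of 0.58 and the other 12 of 0.19. Chitinase/lysozyme averaged 6.73 in AS leaves and 5.25 in WW leaves (1.48 ± 0.30, adjusted p = 0.0653). At the other end of the list were 2 glucanases of callose and fungal glucans: beta-1,3-glucanase differed by −1.39 ± 0.44 and glucan endo-1,3-beta-glucosidase by −1.30 ± 0.31, and both fell by the Rank Product. Beta-1,3-glucanase averaged 2.58 in AS leaves and was kept through WW leaves alone, so that the filter fixed its direction. The PR5-like protein, of the thaumatin family, read 2.05, 6.02 and 5.41 in AS leaves and 2.08, 5.31 and 2.24 in WW leaves, and its difference of 1.29 ± 1.08 (adjusted p = 0.49) lies within the spread between occasions.

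Protease inhibitors and wound enzymes, which act in the gut of a feeding insect, had positive medians without a limma call. All 8 protease inhibitor probe sets kept lay above 0, between 0.92 and 1.69, with a median of 1.25, 6 at an unadjusted p under 0.05 (12.3% of all probe sets) and 6 with one sign in all 3 pairs. All 8 had been listed by the study on these samples and are no independent evidence of direction. MCPI, the metallocarboxypeptidase inhibitor, read 7.76, 11.37 and 10.57 in AS leaves and 5.25, 10.26 and 9.12 in WW leaves, a difference of 1.69 ± 0.42 (adjusted p = 0.0824) that passed the Rank Product. Proteinase inhibitor I (PIIF), the classic wound-induced inhibitor, read 9.51, 11.30 and 10.62 in AS leaves and 8.72, 9.78 and 8.94 in WW leaves, with a difference of 1.33 ± 0.43. Of 4 wound enzyme probe sets kept, LAPA1, a leucine aminopeptidase of the late wound response, averaged 8.60 in AS leaves and 6.93 in WW leaves (1.67 ± 0.33, adjusted p = 0.0627) and rose by the Rank Product. TD2, a threonine deaminase, averaged 11.03 in AS leaves and 9.61 in WW leaves. The 3 wound enzyme members in the lists of the study had a median of 1.67 and are no independent evidence of direction. The 1 member outside those lists differed by 0.25. Polyphenol oxidase F differed by 1.70 ± 0.80, and this rested on occasion 2, where AS exceeded WW by 4.53 against 0.33 and 0.23 on occasions 1 and 3.

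Enzymes of jasmonate synthesis and relatives of them, such as HPL and OPR1, had smaller differences. All 7 probe sets kept were above 0, from 0.01 for AOC, the allene oxide cyclase, to 0.61 for TomloxE, a lipoxygenase, with a median of 0.21, and 1 of them, OPR1 with 0.31 ± 0.10, had an unadjusted p under 0.05 (12.3% of all probe sets were higher at that level). The TomloxE pairs were 0.15, 1.75 and −0.09, and leaving out 1 replicate gave 0.03 to 0.95. None of the 7 was in the lists of the study. LoxD, the lipoxygenase of the jasmonate route, differed by 0.24 ± 0.17 and OPR3, the reductase of that route, by 0.21 ± 0.13. None of these values passed the test, which does not show that they were equal.

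**Figure D2:**
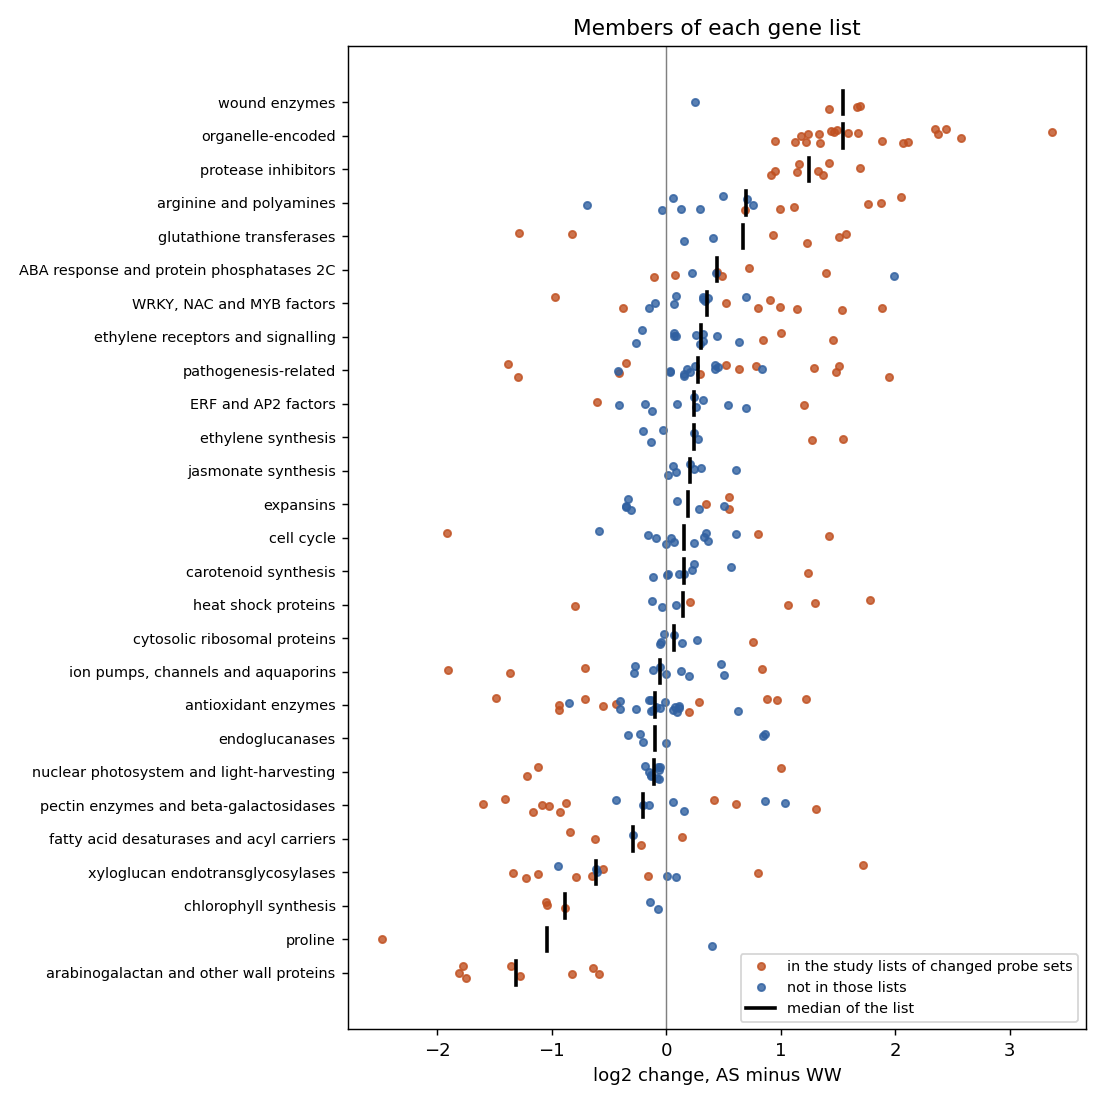
Log2 change AS minus WW of each member of the 27 gene lists (points) with the median of the list (black bar), ordered by that median. Orange points were in the lists of changed probe sets that the study drew from these same samples and blue points were not; the medians run from −1.31 for wall proteins to 1.54 for wound enzymes and organelle-encoded transcripts, and of the 83 points at 1 or more in either direction 81 are orange.

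The transcription factors held 1 call. A MYB111-like probe set, named by similarity to a MYB factor that in Arabidopsis controls flavonol synthesis, read 10.21, 11.42 and 12.06 in AS leaves and 9.20, 10.07 and 10.98 in WW leaves. Each pair rose by a similar step (1.0, 1.35 and 1.08) above a level that differed between occasions, and the fit gave 1.14 ± 0.13 (adjusted p = 0.0354), with 10.72 in AW leaves and 10.75 in WS leaves between the 2 groups. A second, dimmer probe set of the same description gave 1.54 ± 0.49, and was kept through its AS mean of 4.25, with 2.71 in WW leaves. JA2, a NAC factor of tomato first described as jasmonate-inducible, read 6.21, 8.55 and 7.74 in AS leaves and 5.08, 5.25 and 6.50 in WW leaves. It overlapped only through occasion 1 of AS, and its difference of 1.89 ± 0.52 (adjusted p = 0.0964) passed the Rank Product. Its group means fell in 2 levels, with 7.50 in AS and 7.44 in WS leaves, against 5.70 in AW and 5.61 in WW leaves. CaWRKY1, a WRKY factor named from pepper, averaged 6.03 in AS leaves and 5.03 in WW leaves (0.99 ± 0.17). Of the 18 WRKY, NAC and MYB probe sets kept, 1 was called higher by limma (0.103% of all probe sets), and 7 were higher and 1 was lower at an unadjusted p under 0.05 (12.3% and 11.7%), with a median of 0.35. The 9 in the lists of the study had a median of 0.91 and are no independent evidence of direction, while the other 9 had 0.32. The zinc finger factor ZPT2-13 differed by 1.94 ± 0.71 (adjusted p = 0.153), with pairs of 0.08, 2.49 and 3.27. Leaving out 1 replicate or 1 array gave 1.22 to 2.88. It passed without replicate 1, which held its smallest pair (adjusted p = 0.0382), and no probe set passed without replicate 2 or 3. A fit without the smallest pair is no support for its rise.

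Some ethylene receptors were higher in AS leaves without reaching the threshold. Of 14 probe sets for receptors and downstream components, 6 were higher and none lower at an unadjusted p under 0.05 (12.3% and 11.7% of all probe sets), with a median of 0.31 and no limma call. The 3 receptors in the lists of the study led and are no independent evidence of direction, while the other 11 members had a median of 0.26. ETR4 read 3.77, 3.81 and 4.89 in AS leaves and 3.00, 2.30 and 2.81 in WW leaves, without overlap, a difference of 1.45 ± 0.40 (adjusted p = 0.0942). ETR3, the receptor known as Never ripe, read 6.42, 6.28 and 7.23 in AS leaves and 5.69, 5.93 and 5.78 in WW leaves, also without overlap (0.84 ± 0.19, adjusted p = 0.0713). ETR5 read 3.49, 4.26 and 3.28 in AS leaves and 2.92, 3.22 and 1.87 in WW leaves, again without overlap by a small margin (1.0 ± 0.19). ETR4 averaged 2.70 in WW leaves, under the filter, and ETR5 lay under it there in the mean too. Both were kept through AS leaves alone, so that the filter fixed their direction. The receptors ETR1 and ETR2 differed by 0.08 and 0.32, the CTR kinases, which act below the receptors, by 0.30 to 0.63, the EIL factors by −0.21 to 0.26 and EIN2, the membrane protein between them, by −0.26, which turns to 0.15 without replicate 2. On occasion 2 the list stood at a median of −0.13, against 0.54 on occasion 1 and 0.27 on occasion 3. Of 7 probe sets for ethylene synthesis, ACS1A, which makes the precursor ACC, averaged 5.58 in AS leaves and 4.04 in WW leaves (1.55 ± 0.64, adjusted p = 0.186, passed by the Rank Product). A probe set described as an ACC oxidase homolog (protein E8), other than the E8 marker probe set, differed by 1.27 ± 0.36. The 5 members outside the lists of the study had a median of −0.03, and the ACC oxidase ACO6 differed by −0.21 on one probe set. The Pti factors, AP2 proteins that bind the kinase Pto, differed by 0.69 (PTI4), 1.20 (PTI5) and 0.54 (PTI6), while ethylene-responsive transcription factor 1 differed by −0.60 ± 0.38.

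ABA-responsive transcripts and protein phosphatases 2C, negative regulators of ABA signalling, had 9 probe sets kept, 1 of them higher and none lower at an unadjusted p under 0.05 (12.3% and 11.7% of all probe sets), and a median of 0.44. The list median was 0.79 for WS minus WW and 0.03 for AW minus WW, on the same WW arrays. LE16, a lipid transfer protein induced by drought and ABA, averaged 11.35 in AS leaves, 10.88 in AW leaves, 11.14 in WS leaves and 9.95 in WW leaves, and its difference of 1.4 ± 0.46 was the member with the low p. SIEP1L, described as a putative epidermis-specific secreted glycoprotein EP1, read 7.94, 9.56 and 9.40 in AS leaves and 8.22, 9.30 and 9.49 in WW leaves, a difference of −0.04 ± 0.17, while the single treatments lay on either side of both, at 10.17 in AW leaves and 7.77 in WS leaves.

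**Figure D3:**
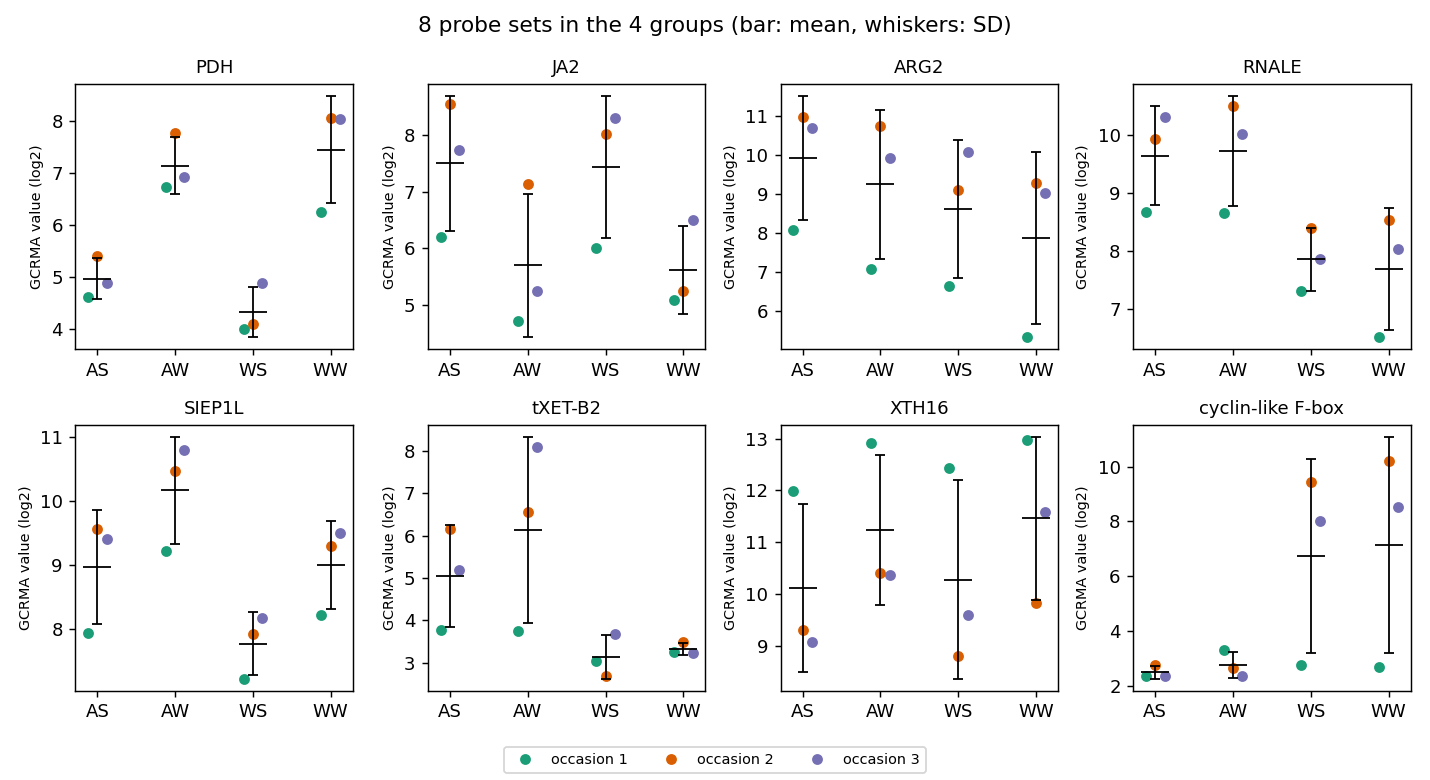
GCRMA value (log2) of 8 probe sets in AS, AW, WS and WW leaves, left to right; points are arrays coloured by occasion, and bars and whiskers are means ± SD (n = 3 each). PDH and JA2 in AS leaves lie near the WS mean (4.33 and 7.44), RNALE lies near the AW mean (9.72), and SIEP1L in AS leaves lies near the WW level.

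Structural wall proteins were lower in AS leaves without a limma call. All 8 probe sets of arabinogalactan and other structural wall proteins that were kept lay below 0, between −1.81 and −0.59, with a median of −1.31 and 7 at an unadjusted p under 0.05 (11.7% of all probe sets), though none was called by limma. All 8 were in the lists of the study and are no independent evidence. FLA2, a fasciclin-like arabinogalactan protein of the cell surface, read 8.25, 5.74 and 6.14 in AS leaves and 9.33, 8.26 and 7.78 in WW leaves. Occasion 1 was the highest in both groups and made them overlap, and the difference of −1.75 ± 0.33 (adjusted p = 0.0578) passed the Rank Product. A putative proline-rich protein averaged 11.76 in AS leaves and 13.57 in WW leaves on one probe set (−1.81 ± 0.37, adjusted p = 0.0653), with pairs of −0.59, −2.89 and −1.95. Arabinogalactan differed by −1.28 ± 0.22 (adjusted p = 0.0504). Both single treatments gave negative medians for the list, −0.57 for AW minus WW and −0.65 for WS minus WW.

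Wall-loosening enzymes were divided. Of 14 probe sets of xyloglucan endotransglycosylases (XETs), which cut and rejoin xyloglucan chains, 1 was higher and 7 were lower at an unadjusted p under 0.05 (12.3% and 11.7% of all probe sets), with a median of −0.61, and the 5 members outside the lists of the study had a like median of −0.60. XET2 read 12.07, 11.88 and 11.62 in AS leaves and 12.53, 12.88 and 13 in WW leaves, without overlap (−0.95 ± 0.16, adjusted p = 0.0504). XTH16 read 11.99, 9.30 and 9.07 in AS leaves and 12.97, 9.83 and 11.58 in WW leaves, a difference of −1.34 ± 0.36 on the first of its 3 probe sets and −1.22 and −0.65 on the others. At the other end, tXET-B2 read 3.78, 6.16 and 5.20 in AS leaves and 3.27, 3.48 and 3.23 in WW leaves. All AS arrays exceeded all WW arrays, and the difference was 1.72 ± 0.76 (adjusted p = 0.212, passed by the Rank Product), with 6.13 in AW leaves and 3.14 in WS leaves. Of 17 probe sets for pectin enzymes and beta-galactosidases, 3 were higher and 7 lower at an unadjusted p under 0.05 (12.3% and 11.7% of all probe sets). The 10 in the lists of the study had a median of −0.97 and are no independent evidence of direction, while the other 7 had 0.06. A pectin methylesterase differed by −1.60 ± 0.47 and a polygalacturonase-like protein by −1.41 ± 0.30, and the beta-galactosidase TBG3 by 1.04 ± 0.24 and the polygalacturonase subunit PGcat by 0.87 ± 0.18. Expansins, with 10 probe sets between −0.35 and 0.55, had a median of 0.19. The 3 expansins in the lists of the study had a median of 0.55, and the other 7 went the other way, with −0.31. The endoglucanase Cel2 was higher by 0.84 ± 0.13, with pairs of 0.88, 0.79 and 0.86.

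The remaining named calls were all lower in AS leaves, and 2 of them encode chloroplast proteins. The plastidic ATP/ADP transporter, which brings ATP into plastids in exchange for ADP, read 9.49, 7.18 and 7.46 in AS leaves and 10.68, 8.80 and 8.83 in WW leaves, and fell by 1.39 ± 0.15 on the log2 scale (adjusted p = 0.0354). Its AW and WS means, 8.42 and 8.62, lay between the AS and WW means of 8.04 and 9.44. The putative chlorophyll b reductase, of the step from chlorophyll b towards chlorophyll a, read 9.36, 6.70 and 6.95 in AS leaves and 10.28, 7.97 and 7.74 in WW leaves, with a change of −1.0 ± 0.13 (adjusted p = 0.0354). For both, occasion 1 stood well above the others in each group and the ranges overlapped, so that the calls rest on the pairs. A glycosyl transferase read 7.83, 5.05 and 5.27 in AS leaves and 9.17, 6.10 and 6.86 in WW leaves (−1.33 ± 0.18, adjusted p = 0.0354). Pm27 read 3.61, 5.07 and 5.19 in AS leaves and 4.56, 6.09 and 6.59 in WW leaves (−1.12 ± 0.15, adjusted p = 0.0354). No role for Pm27 is given in the annotation used.

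Chlorophyll synthesis was lower in some probe sets and level in others. Glutamyl-tRNA reductase, the first committed enzyme of the pathway, differed by −1.04 ± 0.35 and −0.88 ± 0.25 on 2 probe sets, and glutamate-1-semialdehyde aminomutase, the next enzyme, by −1.05 ± 0.17 (adjusted p = 0.0504) on a probe set that read only 2.44 in AS leaves and 3.49 in WW leaves. These 3 came from the lists of the study. The aminomutase probe set was kept through WW leaves alone, so that the filter fixed its direction. The array's own probe set for the same aminomutase, GSA-AT, differed by −0.07 and POR2, protochlorophyllide reductase, by −0.15. The same division ran through the nuclear photosystem genes, of which 9 probe sets outside the lists of the study, among them CAB4, CAB5, CAB6A, PSBO and psaD, lay between −0.19 and −0.06. A pair of chlorophyll a/b binding protein probe sets from those lists differed by −1.22 ± 0.41 and −1.12 ± 0.31, and ferredoxin-1 by 1.0 ± 0.35. Psy1, the phytoene synthase that starts carotenoid synthesis, averaged 11.52 in AS leaves and 10.28 in WW leaves on one probe set (1.24 ± 0.38) and differed by 0.57 ± 0.36 on another.

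Transcripts of chloroplast and mitochondrial genomes had a median as high as that of the wound enzymes, and it came from occasions 2 and 3. All 20 probe sets, which carry names only through the lists of the study and are thus no independent evidence, lay above 0 in the mean, with a median of 1.54 and 18 at an unadjusted p under 0.05 (12.3% of all probe sets). On occasion 1, however, 13 of the 20 were below 0 and the median was −0.08, against 2.66 on occasion 2 and 2.49 on occasion 3, where all 20 were above 0. The chloroplast envelope membrane protein read 5.90, 8.43 and 9.39 in AS leaves and 6.29, 3.22 and 4.10 in WW leaves, and its mean difference of 3.37 ± 1.29 did not pass limma (adjusted p = 0.164). The PSII 10 kDa phosphoprotein read 9.77, 10.36 and 11.10 in AS leaves and 9.38, 6.53 and 7.58 in WW leaves (2.58 ± 0.75, adjusted p = 0.103). Ribosomal protein S7 read 10.47, 12.71 and 12.79 in AS leaves and 10.63, 8.60 and 9.39 in WW leaves. On the WW side occasion 1 was the high array, so that the pairs differed in both groups. The list median was 1.54 for AW minus WW and 0.41 for WS minus WW. Leaving out 1 replicate gave list medians of 1.21 to 2.54 for AS minus WW, the highest without replicate 1. The chloroplast envelope and PSII probe sets then rose by 5.25 and 3.67 (limma adjusted p = 0.00461 each), and no probe set passed without replicate 2 or 3. Replicate 1 was the occasion that disagreed, so a fit without it is no support for the rise. Cytosolic ribosomal proteins, encoded in the nucleus, had a median of 0.07 over 7 probe sets, with none at an unadjusted p under 0.05. Of all probe sets, 12.3% were higher and 11.7% lower at that level, so that none among 7 sets them little apart.

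**Figure D4:**
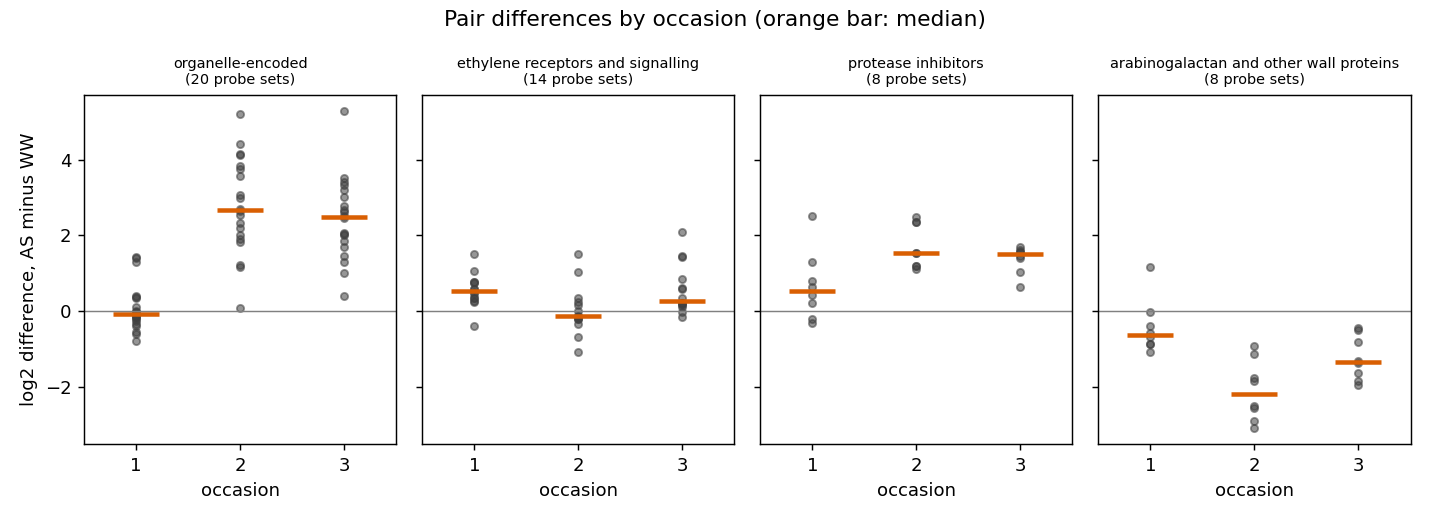
Log2 difference AS minus WW on occasions 1, 2 and 3 for each member (grey points) of 4 gene lists, with the median (orange bar). Organelle-encoded transcripts lie around −0.08 on occasion 1 and above 2 on the other occasions, protease inhibitors have medians of 0.52, 1.53 and 1.49, and wall proteins lie below 0 in the median of each occasion.

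Glutathione transferases, which conjugate glutathione to reactive compounds, had 4 probe sets higher and 2 lower at an unadjusted p under 0.05 among 8 (12.3% and 11.7% of all probe sets), with a median of 0.67. The 6 in the lists of the study had a median of 1.08 and are no independent evidence of direction, while the other 2 had 0.28. The member ctu1 differed by 1.57 ± 0.51 (AS 8.32, WW 6.74), with 8.57 in AW leaves and 6.30 in WS leaves, whereas a probe set described as glutathione S-transferase differed by −1.29 ± 0.53. The latter averaged 2.95 in AS leaves and was kept through WW leaves alone, so that the filter fixed its direction. Antioxidant enzymes had a median of −0.10 over 28 probe sets, with 2 higher and 6 lower at an unadjusted p under 0.05 (12.3% and 11.7% of all probe sets). Their 11 members in the lists of the study had a median of −0.44 and the other 17 of −0.09. SODCC.1, a cytosolic copper/zinc superoxide dismutase, differed by 0.63 ± 0.17 and FESOD, the iron form, by −0.41 ± 0.14. Of 8 heat shock probe sets, one described as heat shock cognate 70 kDa protein 1 differed by −0.80 ± 0.19 and another of the same description by 1.30 ± 0.35. HSP17.4, a small heat shock protein, read 3.96, 6.37 and 3.96 in AS leaves and 4.17, 2.06 and 2.72 in WW leaves. With a WW mean of 2.98 it was kept through AS leaves alone, so that the filter fixed its direction.

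Among growth and transport genes, CycD3;3, a D-type cyclin of entry into the cell cycle, read 6.27, 5.92 and 5.88 in AS leaves and 4.85, 4.63 and 4.33 in WW leaves. The 3 AS arrays lay close together and more than 1 above every WW array, a difference of 1.42 ± 0.34 (adjusted p = 0.0765) that passed the Rank Product. A probe set described as cyclin-dependent protein kinase read 10.06, 6.76 and 5.99 in AS leaves and 10.69, 9.38 and 8.48 in WW leaves (−1.92 ± 0.38, adjusted p = 0.0627). The 14 cell cycle probe sets had a median of 0.16. Of 13 ion pumps, channels and aquaporins, the ammonium transporter AMT1-2 was higher by 0.83 ± 0.17 (adjusted p = 0.0653) and NHX2, a sodium/proton exchanger, by 0.48 ± 0.20, while the plasma membrane proton pumps LHA1 and LHA2 differed by −0.00 and 0.13. Among fatty acid genes an acyl carrier protein differed by −0.84 ± 0.19 and an omega-3 desaturase by −0.62 ± 0.22.

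Several of the largest named values did not pass limma. The cyclin-like F-box probe set, for a protein of the type that marks others for degradation, read 2.35, 2.77 and 2.38 in AS leaves and 2.68, 10.20 and 8.53 in WW leaves. Its AS values were at the floor of the array throughout and its WW value on occasion 1 was too, so that the size of the difference is not exact. It did not pass limma (adjusted p = 0.126). It passed without replicate 1, which held its smallest pair (adjusted p = 0.00512), and no probe set passed without replicate 2 or 3. The means were 2.77 in AW leaves and 6.74 in WS leaves. Obtusifoliol 14-alpha-demethylase, of sterol synthesis, read 9.99, 3.48 and 4.00 in AS leaves and 10.89, 7.01 and 6.27 in WW leaves (−2.23 ± 0.76, adjusted p = 0.131). The regulator of gene silencing, a calmodulin-like protein, read 1.82, 6.21 and 6.38 in AS leaves and 1.73, 2.18 and 2.21 in WW leaves (adjusted p = 0.144). All its WW values and AS replicate 1 lie at the floor, so that the size of its difference is not exact either. It averaged 2.04 in WW leaves and was kept through AS leaves alone, so that the filter fixed its direction. It passed without replicate 1, again its smallest pair (adjusted p = 0.00461), and that fit is no support for the rise. The sucrose synthase sus3 read 7.91, 8.83 and 9.08 in AS leaves and 7.0, 5.89 and 7.32 in WW leaves, without overlap (1.87 ± 0.33, adjusted p = 0.0515). The wound-responsive KED differed by 1.77 ± 0.50 (adjusted p = 0.0987), and the plasma membrane polypeptide by −1.84 ± 0.40 and −1.78 ± 0.29 on 2 probe sets.

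Of the 6 calls without a name, LesAffx.56740.2.S1_at read 4.09, 3.70 and 3.72 in AS leaves and 6.04, 6.05 and 5.68 in WW leaves and fell by 2.09 ± 0.24 on the log2 scale, with 5.60 in AW leaves and 3.83 in WS leaves. LesAffx.57122.1.S1_at read 4.41, 4.03 and 4.68 in AS leaves and 5.43, 5.67 and 5.80 in WW leaves and fell by 1.26 ± 0.17. Those that rose were Les.1219.1.A1_at by 1.41 and Les.1140.1.A1_at by 1.38, with 2 further ones by 0.84 and 0.63.

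Whether the effect of salt differed with Alethea was tested as AS minus AW, less WS minus WW. No probe set passed limma (0 of 7735, 0.0%), with 167 (2.16%) at an unadjusted p under 0.05. Of the named calls, TSI-1 (−0.67, unadjusted p = 0.037) and the putative chlorophyll b reductase (0.49, unadjusted p = 0.0301) were among those 167. For both, the sign was opposite to that of the total change, and the total was smaller in size than the sum of the single treatments. A p that misses the threshold does not show that the treatments added up.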

How the data were processed

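RNA of 12 pooled leaf samples was hybridised to the Affymetrix Tomato Genome Array. The deposited values are log2 expression values made by the authors with GCRMA (version not given in the sources used here); array medians were 7.66 to 7.76, and precision is limited by the number of arrays. Names came from the array symbol for 702 probe sets, from a RefSeq synonym of it for 38, and from a description in the supplementary files of the study for 327; 108 were array controls and 9034 had no name. limma 3.58.1 in R 4.3.3 (lmFit, eBayes; Benjamini-Hochberg over 7735 probe sets) was fitted to 4 group means with occasion as a block. Replicate numbers mark occasions: deviations from group means correlated at 0.437 to 0.876 within the 18 pairs of arrays of 1 occasion and −0.884 to 0.628 over the other 48. p-values and SEs measure the spread between pooled samples left after group and occasion are fitted, shared over the 4 groups and moderated by eBayes. The Rank Product (1000 permutations) and the fit were tested on simulated data. Members and lists were chosen with earlier results of these data known. Named were calls with one sign in all pairs, filled to 12 a direction by size at an unadjusted p under 0.05, at most 4 per list, a fixed set of genes taken up from the study, and at most 2 unnamed probe sets a direction; other members were added after their values were seen. Alternatives were other filters, scalings, priors, arrays and tests.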

Additional observations from a re-analysis of the deposited data

How the results depend on the processing

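The counts of calls moved more than the values. Against 8 higher and 7 lower, limma gave 0 and 0 in the fit on the AS and WW arrays alone (smallest adjusted p = 0.245, with 632 higher and 608 lower at an unadjusted p under 0.05) and 0 and 0 with no replicate block (0.459, with 285 higher and 257 lower at an unadjusted p under 0.05). It gave 13 higher with no filter on low values, 27 and 42 with the filter at a mean above 5, 23 and 43 after quantile normalisation, 22 and 44 with arrays centred, and 39 and 67 with an intensity trend, and the Rank Product gave 34 and 24. Leaving out 1 replicate or 1 array gave 0 to 61 higher and 0 to 58 lower, with 61 and 35 without replicate 1. The 15 calls were kept under both scalings, the trend, the filter above 5 and without WW replicate 1, 14 of them without a filter and 10 without replicate 1; all lost calls kept their sign. The interaction had 0 calls under every alternative run, with 22 to 469 at an unadjusted p under 0.05. With no filter, list medians moved to 0.02 (proline), 0.03 (ethylene synthesis), 0.07 (jasmonate synthesis), 0.14 (wound enzymes), 0.06 (expansins) and 0.04 (pectin enzymes), as members near the floor entered. Leaving out 1 replicate gave list medians of 0.01 to 0.27 for expansins, 0.17 to 0.76 for ABA response, −0.08 to 0.03 for antioxidant enzymes, −0.15 to 0.06 for ion pumps and channels, −0.56 to −0.23 for fatty acid genes and 0.61 to 1.81 for wound enzymes. Signs turned, when 1 replicate or array was left out, for omega-6 fatty acid desaturase (0.14 with all arrays, range −0.56 to 1.42; it was also −0.45 without replicate 3, and −0.18, −0.25, −0.47 and −0.26 without single arrays of occasions 2 and 3), SIEP1L (−0.04, range −0.21 to 0.10; 0.08 without replicate 1), CRTL-E-1 (−0.12, range −0.22 to 0.01) and EIN2 (−0.26, range −0.62 to 0.15; 0.07 without WW replicate 2). The causes were not tested.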

Other observations

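A few probe sets were high in a single array or a single occasion, and their group differences follow from it. ER5, a transcript of the late embryogenesis abundant type, read 2.63, 7.33 and 1.83 in AS leaves and 2.19, 1.82 and 1.82 in WW leaves, and no array of the AW and WS groups was above 2.81. The putative vacuolar proton ATPase subunit E read 2.19, 1.81 and 1.80 in AS leaves and 2.58, 6.95 and 1.99 in WW leaves, with 5.93 in WS replicate 2 as the other high array. ER5 was kept through AS leaves alone and the ATPase subunit through WW leaves alone, so that the filter fixed both directions. WS replicate 2 and WW replicate 2 were also the arrays with the highest hybridisation controls, at 11.4 and 11.5, against 9.50 to 10.7 on the other 10. The part of those controls in the values was not tested.

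Some large named changes lay outside the gene lists and passed the Rank Product, without a limma call. Alternative oxidase 1b, a mitochondrial oxidase that bypasses the cytochrome chain, was higher in AS leaves by 2.52, the RNA helicase-like protein DB10 by 3.10, and THT1-3, a tyramine hydroxycinnamoyl transferase, by 1.73. Pyruvate kinase was lower, at −1.50. These were chosen after their values were seen.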
